A study of Drosophila melanogaster with 8 samples.

Results

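This comparison sets heads of fruit flies carrying the row_RNAi1 hairpin against heads of Actin-gal4 control flies. It uses 5 of the 8 libraries of the series, 2 of row_RNAi1 and 3 of the control, chosen by their sample titles. Of 13781 gene symbols counted, 9499 had at least 10 counts in at least 2 of these 5 libraries and were tested, and the other 4282 were not. Control flies were Actin-gal4/+, and knockdown flies were Actin-gal4/+; UAS-rowRNAi1/+, so both groups carry the same driver. Gal4 is a yeast transcription factor that turns on UAS transgenes, and the Actin promoter makes it in most tissues. No UAS insertion is named for the control, and therefore insertion, genetic background and knockdown cannot be told apart. A second hairpin line, row_RNAi2 (Actin-gal4/+; UAS-rowRNAi2/+, 3 libraries), entered the fit and a direct comparison of the lines. Flies of all groups were kept at 25 °C and had 3 further days after CO2 exposure. Neither sex nor age is stated in the labels. The labels do not say that libraries of a group came from separate flies, so p-values measure the spread between these libraries, which may be technical.

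ROW, the product of row (relative of woc), is a chromatin protein with zinc fingers. In flies it is found in a complex with WOC, the heterochromatin-like protein HP1c and the ubiquitin receptor Ubqn, and the series title pairs it with BEAF-32, a factor bound at domain borders and promoters. RNA interference lowers a transcript by cutting it with small RNAs made from the hairpin. A head holds compound eyes, brain, fat body, muscle and blood cells, and RNA was measured from the whole head. Fewer cells of a type and less RNA per cell cannot be told apart in such samples.

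The row_RNAi1 libraries were the deepest of the series. They held 17952015 and 18046699 counts, against 7015874 to 9437287 in controls, so depth and genotype cannot be told apart. Summed markers of the eye (24340 to 27553 CPM, that is, counts relative to TMM-scaled library totals), neurons (785 to 963 CPM) and glia (865 to 1115 CPM) were present in all 5 libraries. Each of these sums was lower in both row_RNAi1 libraries than in every control. Of 46 markers of testis and male accessory gland, 13 were at 0 in all 5 libraries and 5 were tested. Antennal markers summed to 82.0, 45.4 and 110 CPM in control replicates 1 to 3 and to 29.2 and 74.2 CPM in row_RNAi1 replicates 1 and 2. In row_RNAi2 they summed to 22.0, 27.1 and 27.7 CPM. Control replicate 2 and row_RNAi1 replicate 1 were the lowest of their groups, but of 2 row_RNAi1 libraries neither can be called the odd one. Counts of calls without control replicate 2 and row_RNAi1 replicate 1 are given where they differ most.

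The knockdown target came first. In control replicates 1 to 3 row stood at 14.3, 14.9 and 12.1 CPM, and in row_RNAi1 at 5.92 and 4.21 CPM. The groups did not overlap, and row stood at 36.8% of the control mean. Its log2 fold change was -1.44 (SE 0.19, Benjamini-Hochberg adjusted p = 1.56e-05 from edgeR). An exact two-sided permutation test of 2 against 3 libraries gave p = 0.1, the smallest its 10 arrangements allow. Any hairpin reads assigned to row would add to the knockdown values.

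Of the other 8 listed partners of ROW, only woc passed the test, where 21.3% of all tested genes were called and 11.2% were called higher. It encodes the zinc-finger partner after which row is named, and stood at 23.9, 24.7 and 22.2 CPM in controls and 28.6 and 30.4 CPM in row_RNAi1. The log2 fold change of woc was 0.32 (SE 0.09, Benjamini-Hochberg adjusted p = 0.0178 from edgeR). Under DESeq2 the adjusted p of woc was 0.0534, and without control replicate 3 and without row_RNAi1 replicate 2 it was 0.0633 and 0.144 by edgeR. BEAF-32 stood at 17.2, 19.4 and 16.5 CPM in controls and 16.8 and 15.99 CPM in row_RNAi1, and the groups overlapped. HP1c, HP1b, Ubqn, pzg, Chro and JIL-1 had log2 fold changes between -0.17 and 0.20, none of which passed. Among 19 tested insulator and architectural factors, 1 was called, a share (5.26%) below the 21.3% of all tested genes. It was insv, which encodes an insulator-binding protein of the ELBA family. Its level was 3.16, 2.79 and 3.13 CPM in controls and 1.148 and 1.04 CPM in row_RNAi1, a log2 fold change of -1.46 (SE 0.34) that was -2.20 with counts thinned to the lowest library total. Without control replicate 2, 1 of these factors was called higher.

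Of 4 genes that mark transgenes and strain backgrounds, 3 were called higher, against 11.2% of all tested genes. The pigment gene y (yellow) stood at 0.920, 1.45 and 0.782 CPM in controls and 4.89 and 4.73 CPM in row_RNAi1, with no overlap. Its log2 fold change was 2.17 (SE 0.34, Benjamini-Hochberg adjusted p = 0.000118 from edgeR). Against row_RNAi2 y was also higher, by 2.30 on the log2 scale (SE 0.34). The eye colour genes v and ry rose by 0.39 and 0.42 on the log2 scale, and w, another eye colour gene often used as a transgene marker, had -0.22 and did not pass. Without control replicate 2 and row_RNAi1 replicate 1, v and ry were not called (adjusted p of 0.0646 and 0.115 by edgeR with Benjamini-Hochberg adjustment), and y was below the filter. The part of the inserted transgene or background in these levels was not tested.

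Across all genes, 2019 of 9499 (21.3%) were called by edgeR's quasi-likelihood test, with a Benjamini-Hochberg adjusted p below 0.05. Of these, 1064 (11.2%) were higher and 955 (10.1%) lower in row_RNAi1. Most changes were small: the median log2 fold change was 0.58 among genes called higher and -0.57 among those called lower, and 845 called genes changed by less than 0.5. A change of over 1 on the log2 scale was called for 547 genes (5.76%), 292 higher (3.07%) and 255 lower (2.68%). Both row_RNAi1 libraries lay on one side of all 3 controls for 4552 genes (47.9%), including 2007 of the 2019 called ones. Groups that do not overlap are therefore nearly given for a called gene, here and below. The share called was 14.8% below 1 CPM, 11.4% at 1 to 5 CPM and 44.9% over 100 CPM. Below 1 CPM, 41 genes were called higher and 16 lower, all 57 by over 1 on the log2 scale. Genes at such levels can pass the count filter through the deeper row_RNAi1 libraries alone. Genes called higher took 30.4% of all CPM in row_RNAi1 and 18.9% in controls. Without row_RNAi1 replicate 1 the count of calls was 1251 and without replicate 2 it was 1319, where the lone library is assumed to vary like the other groups.

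**Figure D1:**
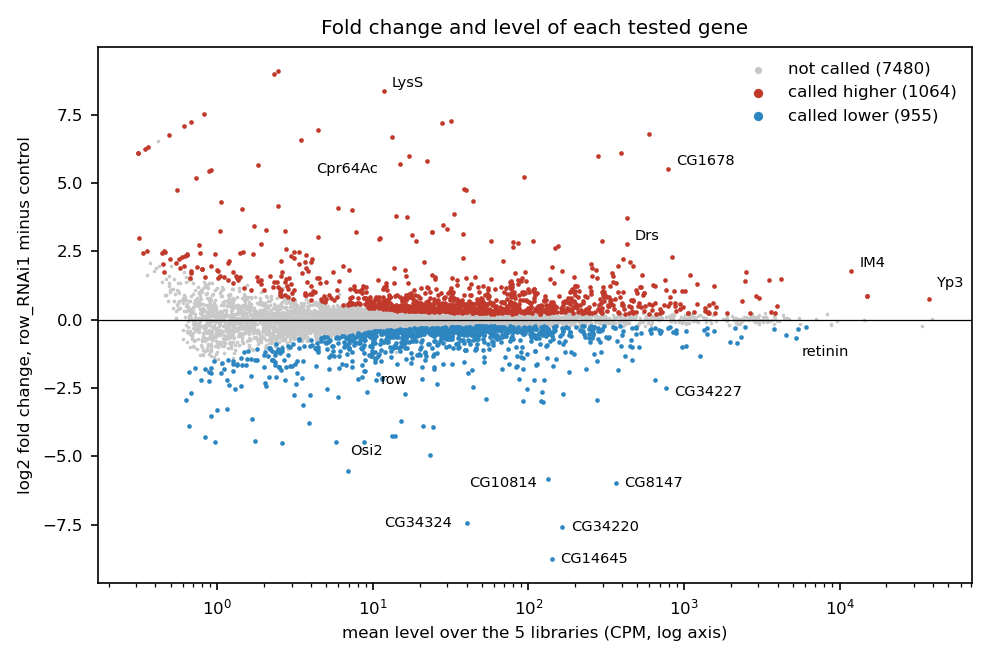
Log2 fold change (row_RNAi1 minus control, vertical axis) against the mean level over the 5 libraries (CPM, log axis), with 1 point for each of 9499 genes. Red points (1064) were called higher and blue points (955) lower, and CG14645, CG34220 and CG34324 at the bottom have reads in mainly 1 control library.

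Among called genes over 5 CPM with groups apart, the largest rises included lysozymes, a cuticle protein and genes for which no function is given here. LysS, a lysozyme gene, had 2 counts over the 3 controls and 983 counts over both row_RNAi1 libraries, a ratio of 381 in scaled counts (95% counting interval 105 to 3148, covering counting error only). Its paralog LysP stood at 0, 0.620 and 0.223 CPM in controls and 43.3 and 22.2 CPM in row_RNAi1, and near-identical lysozyme genes may share reads. Cpr64Ac, which encodes a cuticle protein, stood at 1.18, 0.413 and 0.558 CPM in controls and 31.8 and 40.4 CPM in row_RNAi1, a log2 fold change of 5.69 (SE 0.22, Benjamini-Hochberg adjusted p = 8.42e-12 from edgeR). In none of these 3 genes did the groups overlap, which the ranking required. With either row_RNAi1 library left out, LysS, LysP and Cpr64Ac fell below the filter and were not tested. Edg91, another cuticle gene, rose by 4.01 on the log2 scale.

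A further set of steep rises was also partly up in control replicate 2. CG1678 (whe) stood at 3.81, 115 and 3.01 CPM in controls and 2435 and 1391 CPM in row_RNAi1. CG45080 stood at 3.94, 31.8 and 2.57 CPM in controls and 1769 and 1160.3 CPM in row_RNAi1. In both genes the knockdown libraries lay above every control, which the ranking required, and control replicate 2 lay well above the other controls. The log2 fold change of CG1678 was 5.52 (SE 0.85) with all libraries and 9.14 without control replicate 2, and that of CG45080 was 6.79 (SE 0.59) and 8.83. CG13947, CG16826, CG34212, CG43680, CG44142, CG33109, CG43679 and LysP also moved up by over 0.58 on the log2 scale without that library. The antennal marker sum of control replicate 2 was the lowest of the controls, and its part in these values was not tested.

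Among called genes over 5 CPM whose groups did not overlap, the largest falls were the following. CG8147 (phu), listed under the synonym Alp3, stood at 519.7, 650.0 and 629 CPM in controls and 6.89 and 11.9 CPM in row_RNAi1, a log2 fold change of -5.99 (SE 0.27, Benjamini-Hochberg adjusted p = 4.14e-11 from edgeR). CG10814, listed under the synonym gamma-BBH, the last enzyme of carnitine synthesis, stood at 169, 241 and 249 CPM in controls and 5.38 and 2.37 CPM in row_RNAi1. CG9507 (Nepl5), a neprilysin-like gene, fell from 34.5 to 40.0 CPM in controls to 0.725 and 1.67 CPM. Leaving out row_RNAi1 replicate 1 moved CG10814 from -5.83 to -6.53 on the log2 scale, and leaving out replicate 2 moved CG9507 from -4.96 to -5.69. CG40298 and CG40470 fell, with log2 fold changes of -5.53 and -4.49, and CG3270, CG3397, CG9377 and CG34305 had -4.27 to -3.72. CG9377 was at -4.92 without row_RNAi1 replicate 1 and -3.34 without replicate 2. CG34227 lost the most CPM among genes past -2, from 1234, 1048 and 1125 CPM in controls to 213 and 192 CPM. CG10962 and the noncoding RNA CR43836 fell alike (-2.999 and -2.99), but have nearly the same counts and may share reads.

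A single control library set the 3 largest fitted falls of genes over 5 CPM, which were singled out after their values were seen. CG14645 had 5, 0 and 6284 counts in control replicates 1 to 3 and 2 and 16 counts in row_RNAi1. CG34220 had 9, 11 and 7358 counts in controls and 6 and 42 in row_RNAi1, and CG34324 had 0, 0 and 1806 against 0 and 13. All 3 passed the test (adjusted p of 0.00888 to 0.0111 by edgeR's quasi-likelihood test with Benjamini-Hochberg adjustment), although their groups overlap. Without control replicate 3, CG34220 had a log2 fold change of 0.29 (adjusted p = 0.821, the same edgeR test), and CG14645 and CG34324 no longer had enough counts to be tested. They are among 12 called genes whose groups overlap.

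Gene groups moved in different directions, as the bars of calls by group show. Each count below can be set against the 11.2% of all genes called higher and the 10.1% called lower, and a median against the -0.01 of all tested genes. The lists were drawn up with earlier results of these libraries known.

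**Figure D2:**
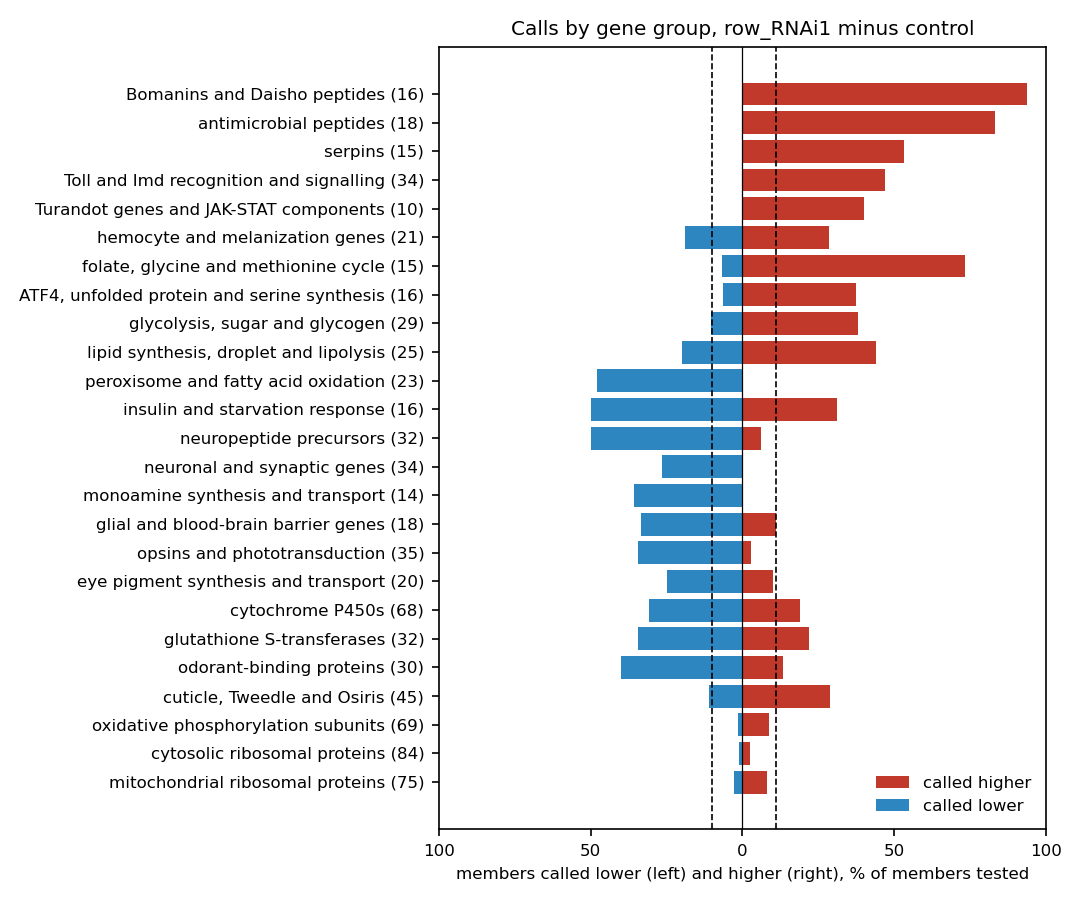
Share of tested members called higher (red, right) and lower (blue, left) in row_RNAi1 for 25 gene groups, with the number of tested members in brackets. Dashed lines mark the shares over all 9499 tested genes (11.2% higher, 10.1% lower), which ribosomal and oxidative phosphorylation groups do not exceed and most immune groups exceed on the right.

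Most of the listed immune effector genes rose. In flies, fungal and bacterial products activate the Toll and Imd pathways, whose NF-kappaB factors switch on secreted peptides, largely in fat body. Of 16 tested Bomanin and Daisho genes, short peptides induced through Toll, 15 were called higher and 0 lower, with a median log2 fold change of 1.24. IM4 (Dso1) stood at 6212, 5645 and 6113 CPM in controls and 20688 and 20539 CPM in row_RNAi1, a log2 fold change of 1.78 (SE 0.07, Benjamini-Hochberg adjusted p = 8.42e-12 from edgeR). CG18067 (Bbd), which is not one of the 16 listed genes, stood at 1272, 1149 and 1444 CPM in controls and 4291 and 4374 CPM in row_RNAi1. IM2 (BomS2), IM3 (BomS3) and IM14 (Dso2) rose by 1.43 to 1.51 on the log2 scale. In IM4 and CG18067 every knockdown library was above every control.

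The antimicrobial peptide genes moved the same way, with more spread between libraries. Of 18 tested, 15 were called higher and 0 lower (median 2.85). Drs, which encodes the antifungal peptide drosomycin, stood at 131, 126 and 131 CPM in controls and 783 and 965 CPM in row_RNAi1. Def, which encodes defensin, stood at 34.7, 31.9 and 23.9 CPM in controls and 211 and 237 CPM in row_RNAi1. Drs rose by 2.76 (SE 0.11) and Def by 2.89 (SE 0.12) on the log2 scale, with no overlap of groups. CecC, a cecropin gene, stood at 5.65, 2.27 and 11.7 CPM in controls and 84.4 and 46.5 CPM in row_RNAi1, a log2 fold change of 3.33 that was 4.11 without control replicate 3. AttD, an attacin gene, had 2 counts in controls and 370 in row_RNAi1, a scaled ratio of 143 (95% counting interval 39.4 to 1188, covering counting error only). It passed the count filter through the row_RNAi1 libraries alone. The infection-induced gene edin stood at 1.18, 0.620 and 5.02 CPM in controls and 55.1 and 8.37 CPM in row_RNAi1, and its log2 fold change of 3.78 was 1.87 without row_RNAi1 replicate 1, 4.59 without replicate 2 and 5.17 without control replicate 3. Without row_RNAi1 replicate 1 and control replicate 2 together, fewer genes of both peptide lists were called higher, with a lone row_RNAi1 library left. The count fell further for antimicrobial peptide genes than for Bomanin and Daisho genes.

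Recognition and signalling genes changed less. Of 34 tested Toll and Imd genes, 16 were called higher and 0 lower (median 0.30). PGRP-SA, a receptor for bacterial peptidoglycan upstream of Toll, stood at 46.4, 58.1 and 51.4 CPM in controls and 117 and 119 CPM in row_RNAi1, a log2 fold change of 1.18 (SE 0.10). PGRP-SD and the fungal glucan receptor GNBP3 rose by 1.13 and 0.65 on the log2 scale. Of central genes of the Toll and Imd pathways, named after their values were seen, the Imd NF-kappaB gene Rel rose by 0.44. The Toll-pathway genes Tl (the receptor, 0.01), Dif (0.19) and dl (0.30) did not pass. Of 15 tested serpins, which inhibit serine proteases, 8 were called higher and 0 lower (median 0.39), among them Spn27A (0.74) and nec (0.49), inhibitors in the melanization and Toll cascades.

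Stress and blood cell genes were mixed. The Turandot genes encode humoral stress peptides, and TotA stood at 175, 195 and 155 CPM in controls and 577 and 779 CPM in row_RNAi1, without overlap. TotA, TotC, TotM and TotX were the 4 called among 10 tested genes of the Turandot and JAK-STAT list, and the log2 fold change of TotC was 2.03, or 1.32 without row_RNAi1 replicate 2. The prophenoloxidase genes PPO1 and PPO2, which encode melanin-forming enzymes of crystal cells, fell, with log2 fold changes of -1.19 and -1.24. PPO2 stood at 227, 249.6 and 286 CPM in controls and 118 and 96.9 CPM in row_RNAi1. The plasmatocyte genes Hml and NimC1 rose by 0.45 and 0.71, and 2 of the 8 hemocyte markers were called each way. NimC1 was not called without control replicate 1 or without row_RNAi1 replicate 2 (adjusted p of 0.0621 and 0.135 by edgeR with Benjamini-Hochberg adjustment). Without control replicate 2 and row_RNAi1 replicate 1 together, 0 hemocyte markers were called higher, with adjusted p of 0.0560 for Hml and 0.0502 for NimC1 by the same edgeR test. Fat body markers summed to 88572 to 123170 CPM in controls and 113521 to 140582 CPM in row_RNAi1, with 4 of 9 called higher and 2 lower. The yolk, sex and dosage compensation list alone reached 84919 to 119308 CPM in controls and 108580 to 134917 CPM in row_RNAi1. Yolk protein genes may therefore make up most of the fat body sum, and the sex of the flies is not stated. The part of fat body tissue in the immune values was not tested.

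**Figure D3:**
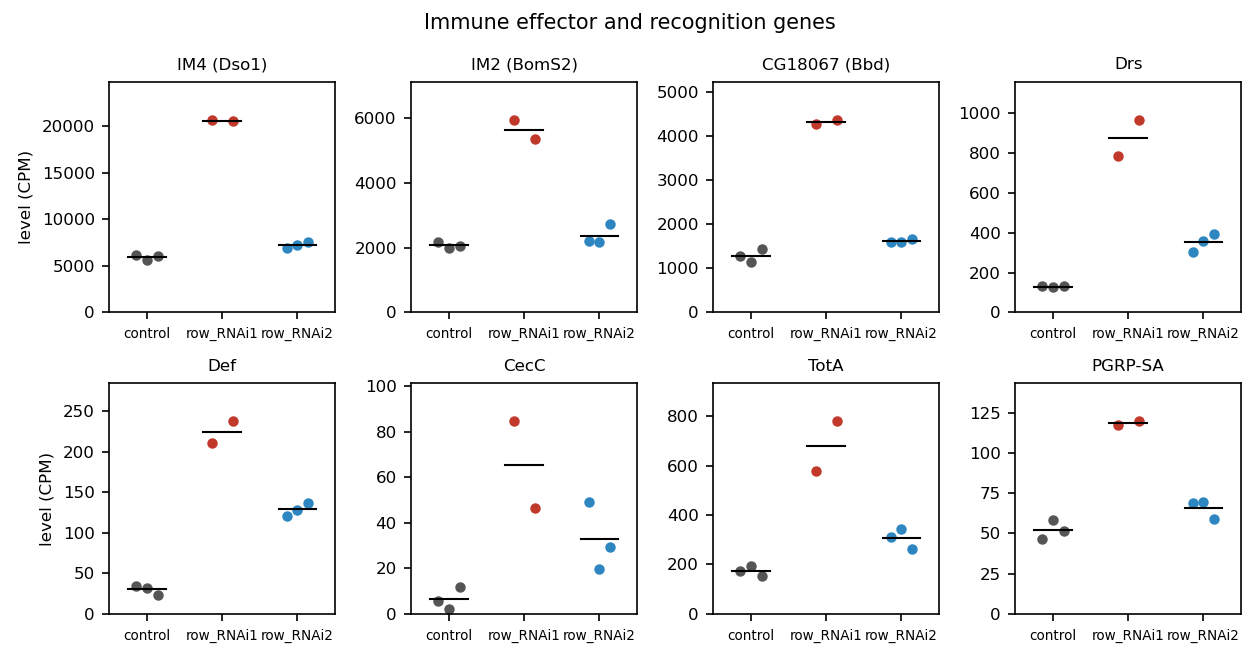
Level (CPM, linear axes from 0) of 8 immune genes in each library of the control (grey), row_RNAi1 (red) and row_RNAi2 (blue), with a bar at each group mean. Every row_RNAi1 library lies above all controls in all 8 panels, for instance 20688 and 20539 CPM against at most 6212 CPM for IM4.

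Most listed enzymes of the folate, glycine and methionine cycle also rose. These enzymes move single carbon units from serine and glycine onto folate and methionine, for nucleotide synthesis and methylation. Of 15 tested, 11 were called higher and 1 lower, with a median log2 fold change of 1.01. CG3999 stood at 25.2, 25.7 and 25.2 CPM in controls and 181 and 171 CPM in row_RNAi1, a log2 fold change of 2.79 (SE 0.10, Benjamini-Hochberg adjusted p = 6.30e-12 from edgeR). Nmdmc, a mitochondrial folate dehydrogenase gene, stood at 42.1, 44.8 and 57.1 CPM in controls and 295 and 334 CPM in row_RNAi1. Sardh, which encodes sarcosine dehydrogenase, stood at 26.7, 29.6 and 31.0 CPM in controls and 118 and 139.6 CPM in row_RNAi1. The groups did not overlap in any of the 3. The trifunctional folate enzyme gene pug rose by 1.72 on the log2 scale. Gnmt, the glycine N-methyltransferase gene, CG3011 (Shmt, serine hydroxymethyltransferase) and Ahcy13 (Ahcy, adenosylhomocysteinase), named after their values were seen, rose by 2.11, 1.23 and 1.01. The 1 gene called lower, CG10623 (Bhmt), had a log2 fold change of -0.39 and was not called by DESeq2, nor by edgeR with either row_RNAi1 library, control replicate 2 or control replicate 3 left out.

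Genes of serine synthesis were measured with a wider list. aay, which encodes phosphoserine phosphatase, stood at 154, 163 and 177 CPM in controls and 385 and 374 CPM in row_RNAi1, a log2 fold change of 1.21 (SE 0.08). CG6287 and CG11899, of the same list, rose by 0.84 and 0.53. The list also holds genes of the ATF4 and unfolded protein responses, and 6 of its 16 tested members were called higher and 1 lower (median 0.07), the latter not called with any of control replicates 2 and 3 or either row_RNAi1 library left out. Thor, which encodes the translation repressor 4E-BP, rose by 0.70.

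Sugar genes were called in both directions. Of 29 tested genes of glycolysis, sugar and glycogen handling, 11 were called higher and 3 lower (median 0.12). Pepck, of the entry step of gluconeogenesis, stood at 417, 375 and 413 CPM in controls and 922 and 1010.3 CPM in row_RNAi1, a log2 fold change of 1.27 (SE 0.11). ImpL3 (Ldh, lactate dehydrogenase) stood at 21.8, 22.7 and 23.2 CPM in controls and 65.8 and 65.2 CPM in row_RNAi1. Both genes showed no overlap of groups. The gluconeogenic gene fbp and the glycogen synthase gene GlyS rose by 1.01 and 1.04 on the log2 scale.

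Part of the fatty acid breakdown list was lower. Of 23 tested genes of the peroxisome and fatty acid oxidation list, 0 were called higher and 11 lower (median -0.28), and 6 were called lower without control replicate 2 and row_RNAi1 replicate 1. CG12262 (Mcad, medium-chain acyl-CoA dehydrogenase) stood at 352, 372 and 409.6 CPM in controls and 173 and 161 CPM in row_RNAi1, a log2 fold change of -1.18 (SE 0.09, Benjamini-Hochberg adjusted p = 1.51e-08 from edgeR). Mtpalpha, yip2 and scu, which encode later enzymes of the mitochondrial cycle, fell, with log2 fold changes of -0.83, -0.70 and -0.66. Of these 4 genes, none had overlapping groups. With counts thinned to the lowest library total, the list had 7 genes called lower.

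Among 25 tested genes of lipid synthesis, droplets and lipolysis, 11 were called higher and 5 lower (median 0.01). ACC, the first enzyme of fatty acid synthesis, stood at 192, 217 and 222 CPM in controls and 431 and 448 CPM in row_RNAi1, and the triglyceride lipase gene bmm stood at 43.5, 40.8 and 40.9 against 85.9 and 95.7 CPM. The droplet coat gene Lsd-1 (perilipin 1) went the other way, at 242, 229 and 257 CPM in controls and 120.3 and 94.8 CPM in row_RNAi1. Acsl, an acyl-CoA synthetase gene, fell by 1.26 on the log2 scale, and bgm, another one, rose by 1.52. Of the yolk protein genes, which are made in fat body, Yp3 rose by 0.74, while Yp1 (0.03) and Yp2 (-0.23), named after their values were seen, did not pass. In the yolk, sex and dosage compensation list, 2 of 16 tested genes were called higher and 3 lower. The latter included the dosage compensation RNA genes roX1 and roX2 (-0.43). Without control replicate 1 or 2, roX2 was not called (adjusted p of 0.106 and 0.132 by edgeR with Benjamini-Hochberg adjustment). The part of sex makeup in these levels was not tested.

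**Figure D4:**
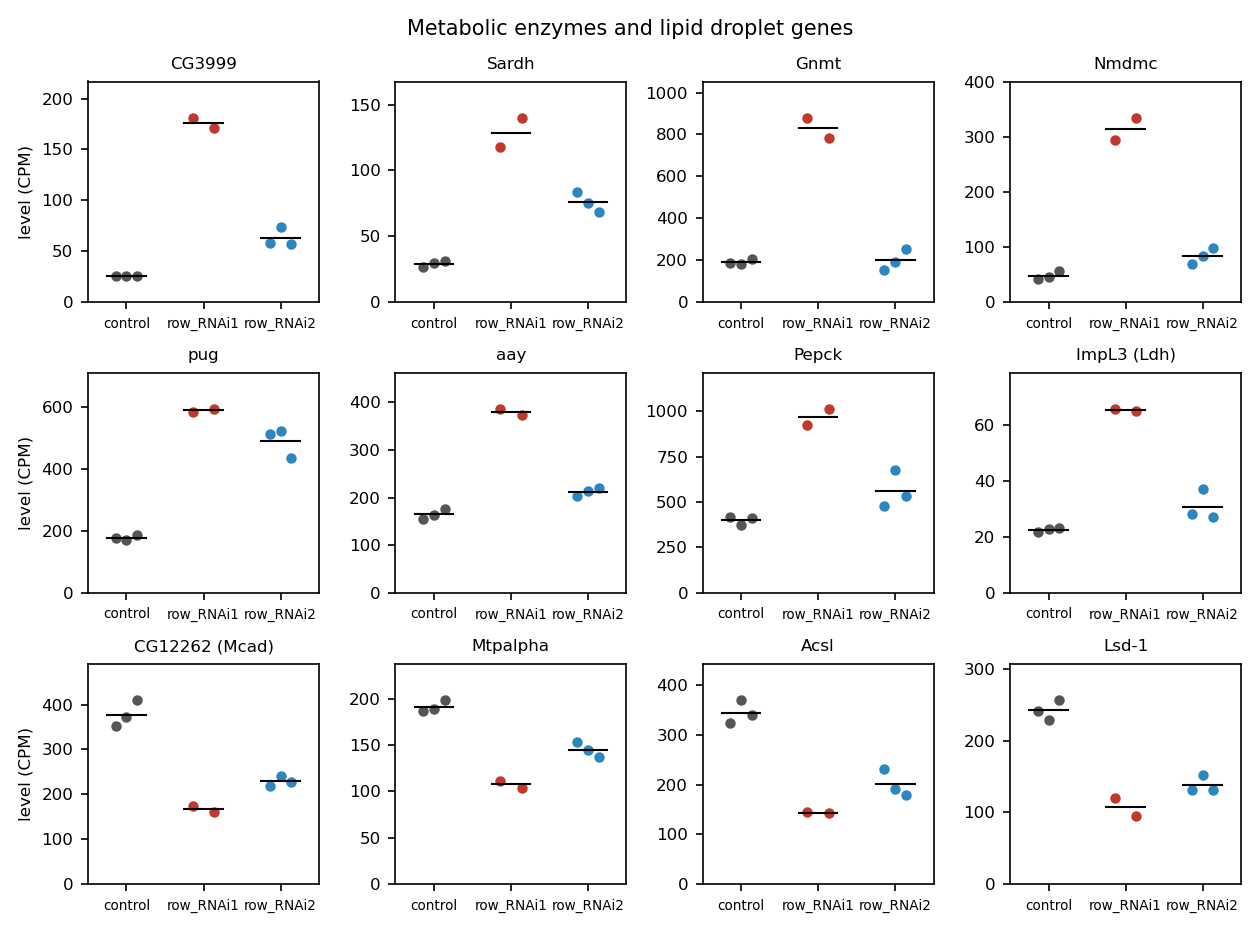
Level (CPM, linear axes from 0) of 12 metabolic genes in each library of the control (grey), row_RNAi1 (red) and row_RNAi2 (blue), with a bar at each group mean. The top 8 panels show genes with both row_RNAi1 libraries above all controls, and the bottom row shows genes with both below, such as Lsd-1 at 120.3 and 94.8 CPM against 229 to 257 CPM.

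Among peptide hormone genes more were called lower than higher. Of 32 tested neuropeptide precursors, 16 were called lower and 2 higher (median -0.33). CCHa2, a nutrient-responsive peptide made in fat body and gut, stood at 128, 122 and 137 CPM in controls and 43.7 and 30.8 CPM in row_RNAi1, a log2 fold change of -1.79 (SE 0.12, Benjamini-Hochberg adjusted p = 3.57e-09 from edgeR). The insulin-like peptide gene Ilp2, made in brain neurosecretory cells, stood at 152, 156 and 168 CPM in controls and 114 and 109.9 CPM in row_RNAi1. Ilp6, the insulin-like peptide of the fat body, moved the opposite way, from 32.2, 35.9 and 34.9 CPM to 69.7 and 68.9 CPM. No library of either group crossed into the other in CCHa2, Ilp2 or Ilp6. Nplp3 and the satiety peptide gene Dsk fell, with log2 fold changes of -0.85 and -0.77. In the insulin and starvation list, 5 of 16 tested genes were called higher and 8 lower, and 3 were called higher without control replicate 1 or without row_RNAi1 replicate 1. Among those lower was tobi, a sugar-metabolism gene under insulin and Akh control, at -1.26.

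A minority of neuronal genes was called, each of them lower. Of 34 tested neuronal and synaptic genes, 0 were called higher and 9 lower (median -0.21), and 2 were called lower without row_RNAi1 replicate 1 and 4 without row_RNAi1 replicate 2. comt, which encodes the vesicle fusion factor NSF1, stood at 80.7, 80.6 and 76.2 CPM in controls and 57.9 and 59.0 CPM in row_RNAi1, a log2 fold change of -0.44 (SE 0.08). The potassium channel gene Shal fell by 0.39, and the active zone gene brp, named after its value was seen, had 0.01 and did not pass. Summed neuron markers, which the list partly contains, were 909 to 963 CPM in controls and 785 to 813 CPM in row_RNAi1, with 1 of 8 called lower and 0 without row_RNAi1 replicate 1. Of 14 tested monoamine genes, 5 were called lower and 0 higher, among them Ddc (-0.57) and ple (-0.38), the dopa decarboxylase and tyrosine hydroxylase genes. Without row_RNAi1 replicate 1 the count was 3, and without control replicate 2 as well it was 2. Of 18 tested glial genes, 6 were called lower and 2 higher, but 3 lower without row_RNAi1 replicate 1 and 1 lower without control replicate 2 as well. Summed glia markers were 1110 to 1115 CPM in controls and 865 to 866 CPM in row_RNAi1. Of 7 tested glia markers, 4 were called lower and 0 higher, or 3 lower by DESeq2. Fewer were called lower without row_RNAi1 replicate 1, which leaves a lone row_RNAi1 library, and fewer still without control replicate 2 as well. In that last setting the 4 markers, Gs2, alrm, Mdr65 and axo, had log2 fold changes of -0.40, -0.36, -0.30 and -0.33. The part of tissue makeup in these shifts was not tested.

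In the eye, changes were uneven between photoreceptor types. Rh5, the blue opsin of some R8 cells, stood at 149, 156 and 161 CPM in controls and 52.9 and 48.3 CPM in row_RNAi1, a log2 fold change of -1.62 (SE 0.08, Benjamini-Hochberg adjusted p = 1.75e-10 from edgeR). Rh6, the green opsin of the other R8 cells, rose from 213, 215 and 201 CPM to 262 and 274 CPM (0.35, SE 0.08), with an adjusted p of 0.0636 by the same edgeR test without row_RNAi1 replicate 2. Rh3, an ultraviolet opsin of R7 cells, fell by 0.49, and Rh4 (-0.11) and the major opsin ninaE (-0.16), named after their values were seen, did not pass. In Rh5, Rh6 and Rh3 the groups did not overlap, as in 2007 of the 2019 called genes. Of 35 tested opsin and phototransduction genes, 12 were called lower and 1 higher (median -0.12), with 7 lower without row_RNAi1 replicate 2 and 5 without control replicate 2 and row_RNAi1 replicate 1. Eye markers summed to 27262 to 27553 CPM in controls and 24340 to 24992 CPM in row_RNAi1, with 3 of 11 called lower and 1 higher. The abundant corneal gene retinin stood at 6325, 6099 and 5937 CPM in controls and 3769.9 and 4025 CPM in row_RNAi1.

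Of 20 tested eye pigment genes, 5 were called lower and 2 higher, or 0 higher without control replicate 2 and row_RNAi1 replicate 1. se (sepia), which encodes an enzyme of red pteridine pigments, stood at 139.6, 149 and 147 CPM in controls and 23.0 and 27.0 CPM in row_RNAi1, a log2 fold change of -2.54 (SE 0.12, Benjamini-Hochberg adjusted p = 5.38e-11 from edgeR). The pteridine genes pr and bw fell, with log2 fold changes of -0.69 and -0.87. se is itself a glutathione S-transferase of the omega class.

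Detoxification genes changed in both directions. Of 68 tested cytochrome P450 genes, 13 were called higher and 21 lower (median -0.07). Cyp6w1 stood at 149.997, 155 and 172 CPM in controls and 36.8 and 32.4 CPM in row_RNAi1, a log2 fold change of -2.20 (SE 0.10). Of 32 tested glutathione S-transferases, 7 were called higher and 11 lower, and leaving out either row_RNAi1 library left 3 called higher. Without control replicate 2 and row_RNAi1 replicate 1 together, 6 were called lower. Of 9 tested UDP-glycosyltransferases, 0 were called higher and 4 lower, led by Ugt86Dd at -1.94. The organic cation transporter genes Orct2 and Orct fell, with log2 fold changes of -2.72 and -1.62. Orct2 stood at 22.1, 25.1 and 26.0 CPM in controls and 3.02 and 4.39 CPM in row_RNAi1. The juvenile hormone epoxide hydrolase genes Jheh1, Jheh2 and Jheh3, which clear that hormone, fell, with log2 fold changes of -1.70, -1.19 and -1.23, and they lie beside each other in the genome.

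Odorant-binding proteins carry hydrophobic molecules in sensilla and other tissues. Of 30 tested, 4 were called higher and 12 lower (median -0.34), but 1 higher without row_RNAi1 replicate 1 and 0 without control replicate 2 as well. Obp44a stood at 1778, 1575 and 1685 CPM in controls and 654 and 688 CPM in row_RNAi1, a log2 fold change of -1.32 (SE 0.08). Obp99b stood at 329, 225 and 429 CPM in controls and 85.2 and 103 CPM in row_RNAi1. In both genes the knockdown libraries were below every control. Of 11 tested antennal markers 4 were called lower, but 2 without control replicate 1 or 3. That count fell without row_RNAi1 replicate 1, which had the lowest antennal sum of the 5 libraries, and rose without row_RNAi1 replicate 2. Obp19a overlapped between groups (6.57, 1.24 and 7.48 against 0.0604 and 2.19 CPM), with a log2 fold change of -2.12 that was -1.18 without row_RNAi1 replicate 1 and -6.11 without replicate 2. The part of antennal tissue in the odorant-binding values was not tested.

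Cuticle genes, heat-shock genes and core machinery completed the lists. Of 45 tested cuticle, Tweedle and Osiris genes, 13 were called higher and 5 lower, but 5 higher without row_RNAi1 replicate 2. Cpr72Ec, an abundant cuticle gene, stood at 422, 453 and 458 CPM in controls and 1195 and 1255 CPM in row_RNAi1. The small heat-shock gene Hsp22 rose by 3.21 on the log2 scale and shares all its counts with Hsp67Bb, so the source of the reads is uncertain. Of 84 tested cytosolic ribosomal protein genes, 2 were called higher and 1 lower (median 0.02), with 0 to 3 each way over the alternatives. Of 69 tested oxidative phosphorylation genes, 6 were called higher and 1 lower (median 0.07), or 12 higher by DESeq2. By edgeR, 3 were higher without control replicate 2, 1 without row_RNAi1 replicate 1 and 0 without replicate 2. Of 75 mitochondrial ribosomal protein genes, 6 were called higher and 2 lower. Without row_RNAi1 replicate 1 or control replicate 2, 3 were higher and 1 lower, without row_RNAi1 replicate 2, 1 each way, and without control replicate 1, 2 higher and 4 lower. Without control replicate 3, 1 was lower. In these 3 groups the share called was below that of all genes.

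Called genes often lay beside others called the same way. In the RefSeq gene order of the Release 6 assembly, which places 9430 of the tested genes, 31.5% of genes called higher had an adjacent tested gene called higher, against 21.0% of all placed genes. For genes called lower the share was 29.4% against 18.8%. The longest run held 12 neighbouring genes called higher, from CG43202 through the Bomanin genes IM23, IM1, IM2 and IM3 to Idgf5 and GstE1. The next genes on, GstE2 to GstE7, formed a run of 6 called lower, with log2 fold changes of -0.97 to -0.27. A run of 7 lower genes, ci to CG31997, held the Hedgehog-pathway gene ci and the Wnt-pathway gene pan, and its member RpS3A was not called with any of control replicates 2 and 3 or either row_RNAi1 library left out. Adh and Adhr, within a run of 6 higher genes, have counts that differ by at most 3 reads in any library, so their reads cannot be told apart. Overlapping and antisense neighbours may share reads, since the labels do not state how strand was used.

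The row_RNAi1 line differed from row_RNAi2 directly for 1061 genes (11.2%) by edgeR's quasi-likelihood test with Benjamini-Hochberg adjustment, with 587 (6.18%) higher and 474 (4.99%) lower in row_RNAi1. Without row_RNAi1 replicate 1 the count was 569, and without replicate 2 it was 611. The level of row itself was 0.54 lower in row_RNAi1 on the log2 scale (SE 0.20, adjusted p = 0.0989 by the same edgeR test). A difference in knockdown was therefore not established after adjustment over all genes, though the unadjusted p of that test was 0.0153. The row_RNAi2 libraries stood at 8.04, 5.97 and 8.28 CPM, above the 5.92 and 4.21 CPM of row_RNAi1. Both lines are compared with the same 3 control libraries, and their values are given side by side.

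Several nutrient and immune genes differed between the lines. The level of tobi was 124, 107 and 154 CPM in controls, against 68.0 and 39.1 CPM with the first hairpin and 337, 381 and 366 CPM with the second. It lay below every control in row_RNAi1 and above every control in row_RNAi2, and the lines differed by -2.76 on the log2 scale (SE 0.19, Benjamini-Hochberg adjusted p = 2.17e-08 from edgeR). CCHa2 stood at 153, 145 and 148 CPM in row_RNAi2, a difference between the lines of -1.998 (SE 0.12). Gnmt stood at 878 and 785 CPM in row_RNAi1 but at 151, 193 and 252 CPM in row_RNAi2, against 187, 183 and 207 CPM in controls. Of 16 tested Bomanin and Daisho genes, 15 differed between the lines, and IM4 was higher in row_RNAi1 by 1.501 (SE 0.07). Ilp2 was lower in row_RNAi1 than in row_RNAi2 by 0.46 on the log2 scale (SE 0.08), and retinin by 0.77 (SE 0.07).

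Osi2, an Osiris-family gene, stood at 22.6, 19.6 and 21.4 CPM in controls, only 0.906 and 1.27 CPM in row_RNAi1, but 22.3, 20.5 and 20.4 CPM in row_RNAi2. Its 3 row_RNAi2 libraries lay within or near the control range. CG4757 was lowest in row_RNAi2, at 0.164, 1.09 and 1.42 CPM, against 11.1 and 14.1 CPM in row_RNAi1, with controls at 35.8, 36.3 and 43.8 CPM. By contrast CG10814, CG34227 and Ugt86Dd differed between the lines by 0.04 (SE 0.41), -0.11 (SE 0.10) and -0.10 (SE 0.10), which did not pass. For w the lines differed by -1.39 (SE 0.17), with 11.8, 16.3 and 15.7 CPM in row_RNAi2 and 5.56 and 5.77 CPM in row_RNAi1.

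**Figure D5:**
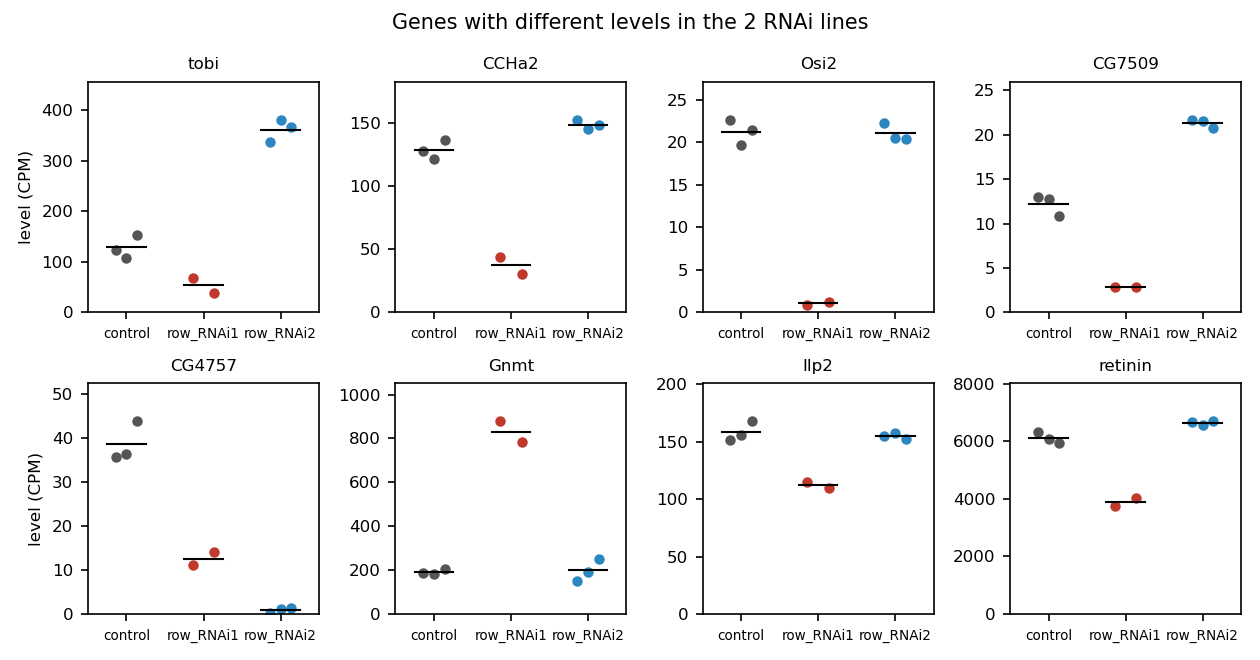
Level (CPM, linear axes from 0) in each library of the control (grey), row_RNAi1 (red) and row_RNAi2 (blue) for 8 genes called different between the lines, with a bar at each group mean. Levels of tobi lie below the controls in row_RNAi1 (68.0 and 39.1 CPM) and above them in row_RNAi2 (337 to 381 CPM), while CG4757 is lowest in row_RNAi2.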

How the data were processed

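RNA from fly heads was sequenced by 3′ RNA-seq with pooled barcoded libraries, per the labels' protocols. The authors deposited raw counts, which are whole, for 13781 gene symbols and 8 libraries. The aligner STAR and the build dm3 are named per the submitters' processing notes. The counting program, annotation and strand use: not given in the sources used here. All 8 count columns matched a sample title. Gene symbols are as deposited, with current symbols from the RefSeq table of the Release 6 assembly, which matched 10981 directly and 2696 by synonym. That build is later than dm3, so its positions were used only to order neighbouring genes, and no coordinates or sequences are given.

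Genes with at least 10 counts in at least 2 of the 5 libraries were tested with edgeR 4.0.16 in R 4.3.3. A 3-group quasi-likelihood model was fitted to all 8 libraries, with TMM scaling and 5 residual degrees of freedom, and p-values were adjusted by Benjamini-Hochberg over all 9499 genes. A gene was called at an adjusted p under 0.05. Each SE was derived from the F statistic. The script was tested on simulated data. Alternatives used DESeq2 1.42.0, limma 3.58.1 (voom), other scalings and filters, thinned counts and left-out libraries.

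Genes were named by rule: row, the 15 largest fold changes each way over 5 CPM with groups apart, the 10 largest CPM differences each way, up to 4 members per list with the smallest p, partners of ROW, transgene markers, and the 5 largest differences each way between the lines. Genes outside the rule, such as other list members given by value, were chosen after their values were seen. Members and lists were chosen with earlier results of these data known.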

Additional observations from a re-analysis of the deposited data

Results flagged for a closer look

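The effect against the shared controls differed between the 2 RNAi lines for 1061 genes, by the direct contrast of edgeR's quasi-likelihood test with Benjamini-Hochberg adjustment. Among genes also called in row_RNAi1 against control, the difference (row_RNAi1 minus row_RNAi2, log2) was most positive for CG4757 (3.62), CG43920 (2.92), CG10924 (2.87), LysS (2.71) and edin (2.30). It was most negative for Osi2 (-4.25), CG40298 (-3.13), CG7509 (-2.89), Obp19c (-2.76) and tobi (-2.76).

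CG7509 stood at 10.8 to 13.01 CPM in controls, at 2.84 and 2.89 CPM in row_RNAi1, but at 21.7, 21.5 and 20.7 CPM in row_RNAi2. CG10924, the phosphoenolpyruvate carboxykinase gene Pepck2 in the RefSeq table, stood at 1.45, 2.17 and 1.67 CPM in controls, at 8.70 and 24.9 CPM in row_RNAi1, but at 2.46, 2.44 and 2.05 CPM in row_RNAi2. CG43920 stood at 9.60, 0.517 and 7.37 CPM in controls and 94.3 and 30.0 CPM in row_RNAi1. For CG43920, edin and CG10924 the 2 row_RNAi1 libraries themselves differed widely.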

How the results depend on the processing

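Over 16 alternatives, 853 of the 2019 genes called in row_RNAi1 were called in every one. Counts of calls ran from 1602 (thinned counts) to 2147 (voom) where no library was left out, with 1727 by DESeq2. Leaving out 1 library gave 1251 to 1855 genes (656 to 1002 higher, 595 to 853 lower), and leaving out control replicate 2 and row_RNAi1 replicate 1 together gave 1039 (551 higher, 488 lower). Between the lines, leaving out 1 library gave 569 to 1112 genes (323 to 574 higher, 235 to 538 lower), and both together gave 535 (307 higher, 228 lower). The log2 fold change of row was called in every setting, at -1.70 to -1.21 with 1 library left out. Calls between lines have no value in a fit of the 5 libraries alone.

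The labels do not say whether shared replicate numbers pair the samples. Deviations of same-numbered control and row_RNAi1 libraries from their group means correlated at -0.0725 and -0.141. With 2 row_RNAi1 libraries the deviations mirror each other, so these values cannot settle whether samples are paired. With the replicate number as a block 1828 genes were called, 1734 of them among the main calls.

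Among 203 named genes besides row, 185 were tested in every alternative, and 137 of these kept direction and call throughout. The other 18 were below a filter in at least 1 alternative. Only partners that were not called changed sign. With 1 library left out, HP1b ran from -0.3896 to 0.023, Ubqn from -0.034 to 0.05, pzg from -0.0719 to 0.0832 and JIL-1 from -0.1632 to 0.0761. With thinned counts, pzg was 0.0349, HP1c 0.11 and JIL-1 0.0356, and with both libraries left out HP1c was 0.0323. The causes were not tested. Depth differed between the groups, and thinning to the lowest library total kept 1515 of the main calls.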
